A study of Mus musculus with 9 samples.

Results

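MicroRNA genes with accessible chromatin were taken from the list of ATAC-Seq regions of wild-type mouse embryos. Members were all regions assigned to a noncoding RefSeq transcript whose symbol names a miRNA, with regions of identical position counted once. The rule found 361 of 17164 regions (2.1%) and 225 of 11541 genes. Of these, 349 regions belonged to 220 hairpin genes, which are the short genes of the miRNA precursors, and 12 regions to 5 host transcripts named after a miRNA (Mir22hg, Mir99ahg, Mir155hg, Mir124-2hg and Mir9-3hg). ATAC-Seq marks open chromatin by the insertion of sequencing adapters by the transposase Tn5. The series held 9 libraries, 3 each from wild-type, Isl1-/- and Isl1Cre+/-/ Brg1fl/fl embryos, from pharyngeal mesoderm and hearts at E8.75 (6 somites). The study asked how the transcription factor Isl1 and the chromatin remodeler Brg1 act on accessibility in cardiac progenitors. The wild-type (wt) list, which carries no mutant allele, is the one described here, and the other 2 genotypes were not analysed here.

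The list held 1 set of consensus regions from the 3 wild-type libraries, without a value per library, so that a height, a spread between embryos and a test of any difference could not be given and the depth is unknown. Shares are given with 95% Wilson intervals, which cover counting error only. Among markers of the dissected tissue, Isl1 had 9 assigned regions, Mef2c 5, Tbx20 4, Hand2 1 and Gata4 1. No region was assigned to Tbx1, Nkx2-5, Tbx5, Myl7 or Tnnt2.

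MicroRNAs are cut from hairpins within longer primary transcripts, first by Drosha with Dgcr8 in the nucleus and then by Dicer in the cytoplasm. The mature strand guides Argonaute proteins to messenger RNAs, mainly by pairing of its seed, bases 2 to 8. A primary transcript can start far upstream of its hairpin, at a promoter of its own or at that of a protein-coding or long noncoding host gene. In the heart, miR-1, miR-133 and the miRNAs inside myosin heavy chain genes are known for their roles in muscle, while the miR-15, miR-17 to 92 and let-7 families are known for their roles in cell division and developmental timing.

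The mature sequences below show which families of targeting sequence had open regions. They are the miRNAs of 10 of the 15 seed families with more than 1 member gene, namely both with 3 such genes and, in alphabetical order of seed, 8 of those with 2, and of miR-218, written 5′ to 3′ as in RefSeq (GRCm38.p6), with the seed in capitals. Genes of the same family shared the capitals and differed, where they did, outside them.
miR-181a-5p: aACAUUCAacgcugucggugagu
miR-181b-5p: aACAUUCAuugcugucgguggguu
miR-130a-3p: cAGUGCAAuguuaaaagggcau
miR-130b-3p: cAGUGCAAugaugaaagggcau
miR-6341: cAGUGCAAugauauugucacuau
let-7a-5p: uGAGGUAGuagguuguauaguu
let-7i-5p: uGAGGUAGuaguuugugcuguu
miR-15a-5p: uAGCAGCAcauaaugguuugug
miR-195b: uAGCAGCAcagaaauaguagaa
miR-148a-3p: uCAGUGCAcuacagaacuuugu
miR-152-3p: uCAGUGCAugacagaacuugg
miR-193a-3p: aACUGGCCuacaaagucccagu
miR-193b-3p: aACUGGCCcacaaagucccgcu
miR-9-5p: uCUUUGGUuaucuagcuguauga
miR-218-5p: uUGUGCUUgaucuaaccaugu
miR-762: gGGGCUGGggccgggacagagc
miR-7648-3p: aGGGCUGGgcccgggacgcgg
miR-6346: uAGCAGGUgucugcaaugccaa
miR-6350: uAGCAGGUgcauuauaaauau
miR-760-3p: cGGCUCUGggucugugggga
miR-7239-3p: uGGCUCUGucaggcagguag

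Of the remaining list members with an open region, 10 are shown next, again with the seed in capitals, and Mir143 and Mir122 are named without a sequence. They belong to the neural, vascular, growth, heart, epithelial, and liver and pancreas groups described further on.
miR-17-5p: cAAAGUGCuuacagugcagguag
miR-125b-5p: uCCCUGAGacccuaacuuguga
miR-23a-3p: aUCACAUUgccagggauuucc
miR-222-3p: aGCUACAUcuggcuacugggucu
miR-214-3p: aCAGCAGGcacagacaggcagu
miR-128-3p: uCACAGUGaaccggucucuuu
miR-137-3p: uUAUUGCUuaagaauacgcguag
miR-488-3p: uUGAAAGGcuguuucuugguc
miR-205-5p: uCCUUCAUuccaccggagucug
miR-216b-5p: aAAUCUCUgcaggcaaauguga

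Open regions were assigned to a smaller share of miRNA genes than of protein-coding genes. Of 1180 miRNA genes in the RefSeq reference, 220 had a region (18.6%, interval 16.5 to 21.0%). The share was 49.3% for 21031 protein-coding genes and 25.2% for 3319 long noncoding genes with a curated transcript. Among miRNA genes with numbers under 1000 and let-7, which were named early and include most of the conserved families, 78 of 526 had a region (14.8%, 12 to 18.1%). Among those numbered 1000 or over, 142 of 654 did (21.7%, 18.7 to 25.0%). The later-named genes thus made up the larger part of the members. Counting hairpins within 10 kb of each other as 1 locus, 196 of 822 loci had a region (23.8%).

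The regions of miRNA genes were mostly far from the hairpin. The start that the list uses for a miRNA gene is the 5′ end of its hairpin: for 200 hairpin genes a position was found on the genome (NCBIM37, mm9), and for 316 of their 320 regions the deposited distance equaled, to the bp, the distance from the region's center to that base. The other 4 regions, of Mir8099-1 and Mir297-1, were on another chromosome than the position found, and these genes were treated as not placed, which left 198. Of the 361 regions, 44 were centered within 1 kb of the assigned start (12.2%, 9.21 to 16%), beside 52.9% of all regions. For the 349 regions of hairpin genes the share was 12%, for protein-coding genes 56.9% and for other noncoding genes 19.6%. A distance of 10 to 100 kb was found for 43.0% of hairpin-gene regions and one over 100 kb for 29.2%. These shares were 24.4% and 14.9% among all regions, and 39.8% and 29.3% among those of other noncoding genes. The median distance was 29862 bp for the members, 336 bp for protein-coding and 37121 bp for other noncoding genes, so the value for the members was closer to that of other noncoding genes. Regions lay downstream of the hairpin start about as often as upstream (183 of 349 downstream, 52.4%, 47.2 to 57.6%). Every region was upstream for 91 hairpin genes and downstream for 101, and 28 genes had regions on both sides.

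**Figure D1:**
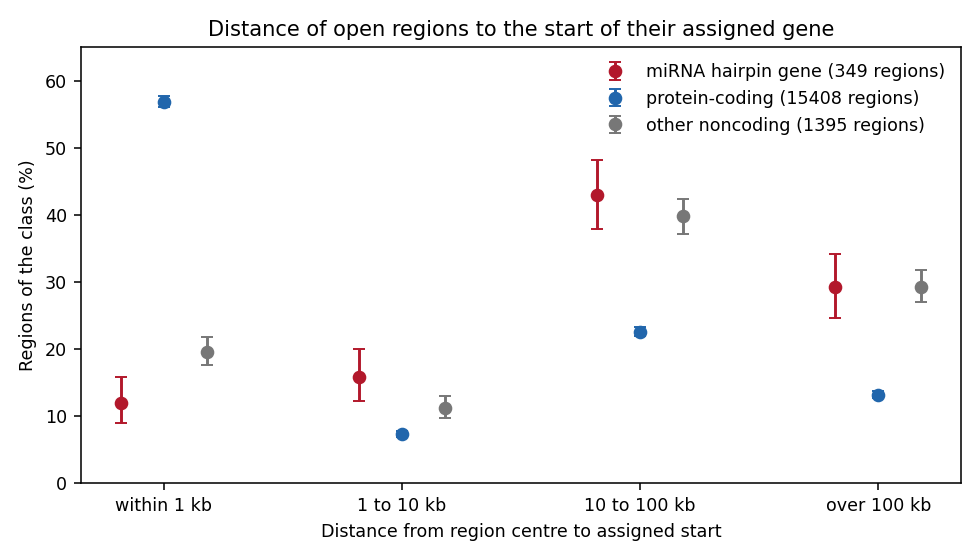
Share of regions (%, vertical axis) by distance from region center to the assigned start (horizontal axis) for miRNA hairpin genes, protein-coding genes and other noncoding genes. Points are shares and bars are 95% Wilson intervals. Within 1 kb, hairpin genes stood at 12% and protein-coding genes at 56.9%.

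Few regions assigned to miRNA genes lay at any annotated promoter. Each region was assigned to a single gene, so one at the start of another gene could be listed under that gene instead. In the shares below and the distances above, chromatin and assignment therefore cannot be told apart. In the GENCODE annotation of the same build, 64 of 361 regions were centered within 1 kb of an annotated transcript start (17.7%, 14.1 to 22.0%), beside 56.0% of all regions. Without the starts of small RNAs, 57 were (15.8%), beside 55.7% of all regions. The center was inside a gene for 164 regions (45.4%, 40.4 to 50.6%), beside 57.2% of all regions. By place, 57 regions were at a start, 9 over an exon, 110 in an intron and 185 between genes. Introns held 30.5% of members and 15.7% of all regions, and 51.2% and 27.0% were between genes. Among regions over 1 kb from a start of a longer gene, introns held 36.2% of members and 35.4% of others. Between genes were 60.9% and 60.8% of these. For 134 of the 349 regions of hairpin genes (38.4%) another GENCODE start was nearer than the hairpin, a share not counted for other regions. In 20 of these regions the hairpin was over 10 kb away and the other start within 1 kb. An example is the region at chr14:62267046-62268236, assigned to Mir15a at 16694 bp upstream, whose center was 9 bp from the start of Dleu2, the noncoding host of the miR-15a and miR-16-1 hairpins. Others lay at starts of Igf2bp1, Strbp, Gli2 and Rai1, genes that were not themselves the assigned gene.

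Regions over the hairpin itself were the exception. Among 316 regions with a placed hairpin, 38 shared at least 1 bp with it (12%, 8.89 to 16.1%), and 36 held the whole hairpin. Of the 38, 26 were also within 1 kb of the start of a longer gene and 12 were not. They were wider and richer in CpG than the rest, with a median width of 1462 bp against 981.5 bp and a median of 6.04 against 1.38 CpG per 100 bp. In 28 of the 38 the gene was numbered 1000 or over (73.7%, 58.0 to 85.0%), beside 142 of all 220 hairpin genes (64.5%). Of the 1081 reference hairpins that were placed, 55 were overlapped by a region. Of these 55, 38 were the assigned gene. Another 15 lay in a region assigned to a gene that is not a miRNA (for example Mir320 at Polr3d and Mir1903 at Nrp1). The last 2 lay in a region assigned to a neighboring miRNA (Mir301b with Mir130b, Mir2861 with Mir3960).

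Among the 38 regions assigned to the hairpin they overlapped, the 10 widest were all within 1 kb of another annotated start. The widest of them was that of Mir5130, 3211 bp with its center 591 bp downstream of the hairpin start and 487 bp from Kctd12. Mir1907 followed with 2486 bp, 430 bp from Trps1, which encodes a GATA-type repressor. The region of Mir7238 was 2393 bp wide and 75 bp from Ankrd10. For Mir1904 the width was 2178 bp, 65 bp from a start of Pde4d, a cyclic AMP phosphodiesterase. These regions were promoter regions of longer genes by position. Mir7648 had 2145 bp at 444 bp from Alg10b, and Mir760 had 2029 bp at 130 bp from Gm17494. The regions of Mir8105 (1960 bp), Mir5131 (1958 bp) and Mir3960 (1956 bp) lay 352, 335 and 13 bp from Smarcc2, Ddhd1 and Cdk9. Smarcc2 encodes a subunit of the Brg1 complex, and Cdk9 the kinase that releases paused RNA polymerase. That of Mir8112 (1834 bp) lay 259 bp from Krcc1.

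The 12 regions over a hairpin and away from other starts included let-7i and miR-128-2. The let-7i region, chr10:122422353-122423835, was 1483 bp wide and held the whole 85 bp hairpin, with the nearest start of a longer gene, Mon2, 90467 bp away. It had the highest GC content (69.7%) and the highest CpG density (13.1 per 100 bp) of all 361 members. The 300 bases around this hairpin (chr10:122422589-122422888, minus strand, NCBIM37), with the hairpin in capitals, show how CpG-rich the surroundings were, with 35 CpG.
Mirlet7i: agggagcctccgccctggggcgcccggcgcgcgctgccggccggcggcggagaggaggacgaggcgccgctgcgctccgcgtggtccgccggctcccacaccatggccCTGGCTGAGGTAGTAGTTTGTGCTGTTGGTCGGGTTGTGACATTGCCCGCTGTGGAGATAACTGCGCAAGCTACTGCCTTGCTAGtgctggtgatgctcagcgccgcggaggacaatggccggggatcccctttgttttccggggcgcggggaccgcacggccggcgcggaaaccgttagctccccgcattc
The region over Mir128-2, chr9:112020501-112021728, was 1228 bp wide in an intron of Arpp21, 67116 bp from the nearest start. Its GC content was 47.5% with 2.69 CpG per 100 bp. The same window around its hairpin (chr9:112021028-112021327, minus strand) held 11 CpG, fewer than that of let-7i.
Mir128-2: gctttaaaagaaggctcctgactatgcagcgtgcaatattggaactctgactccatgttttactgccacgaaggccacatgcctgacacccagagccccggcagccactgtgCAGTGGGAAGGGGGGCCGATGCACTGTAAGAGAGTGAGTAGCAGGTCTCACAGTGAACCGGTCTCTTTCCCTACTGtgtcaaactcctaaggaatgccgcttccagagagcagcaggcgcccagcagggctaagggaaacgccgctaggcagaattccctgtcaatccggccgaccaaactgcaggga
For contrast, the window of Mir5130 (chr14:103381658-103381957, minus strand), in the region at the start of Kctd12, held 47 CpG.
Mir5130: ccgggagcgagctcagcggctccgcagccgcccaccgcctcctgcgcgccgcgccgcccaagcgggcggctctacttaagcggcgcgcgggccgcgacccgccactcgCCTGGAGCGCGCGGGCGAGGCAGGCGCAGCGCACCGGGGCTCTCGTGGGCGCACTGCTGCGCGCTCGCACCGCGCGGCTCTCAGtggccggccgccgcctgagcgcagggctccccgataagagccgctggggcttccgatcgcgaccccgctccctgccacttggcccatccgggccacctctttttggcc
Mir210, which is known for its induction by low oxygen, had a 1440 bp region over its 110 bp hairpin, 5220 bp from the nearest other start.

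**Figure D2:**
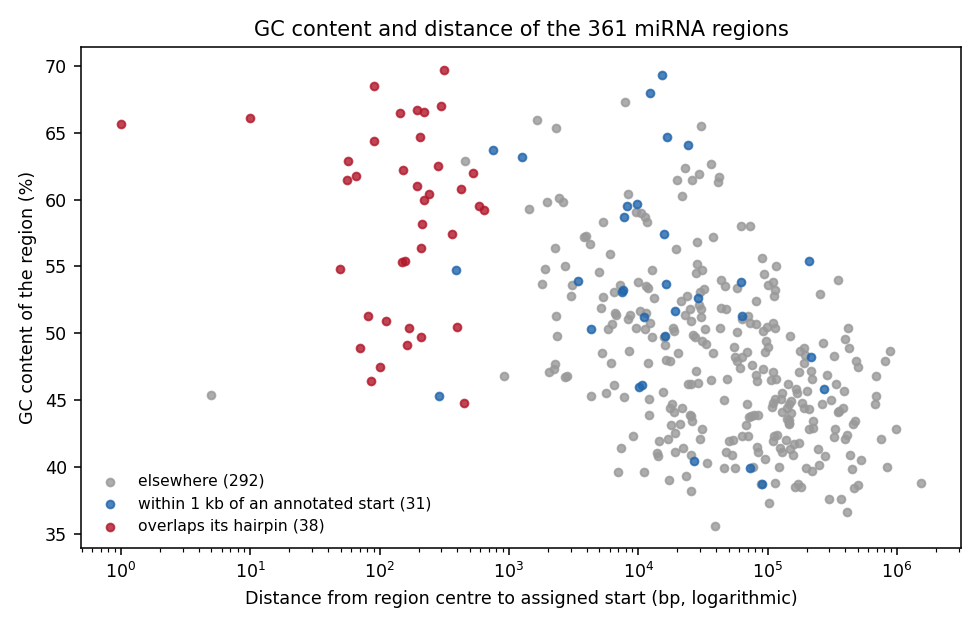
GC content of each of the 361 miRNA regions (%, vertical axis) against the distance from its center to the assigned start (bp, logarithmic horizontal axis). Red points are the 38 regions over their hairpin, blue points 31 further regions within 1 kb of an annotated start of a longer gene, and gray points the other 292. The let-7i region was the highest, at 69.7%.

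In sequence composition the distal miRNA regions resembled other distal regions. The median GC content was 48.6% for the members (47.5 to 49.7%), 54.3% for protein-coding and 47.9% for other noncoding genes. Among regions over 1 kb from a start of a longer gene, the medians were 47.4% for 304 members and 47.1% for 7303 regions of other genes, with 1.32 and 1.3 CpG per 100 bp. Within 1 kb of such a start they were 57.4% for 57 members and 58.0% for 9500 others. The median width was 992 bp (952 to 1022 bp) for members, 1139 bp for protein-coding and 1008 bp for other noncoding genes. Among distal regions it was 957 bp for members and 942 bp for others, and at starts 1474 bp (1191 to 1649 bp) and 1288 bp (1279 to 1298 bp). Composition and width differed more between distal regions and starts than between members and others.

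The letters of factor motifs were counted on both strands in the central 300 bases of each region. AGATAA, bound by GATA factors, was in 14.1% of members and 8.54% of all regions, but in 16.1% of distal members and 15% of distal regions of other genes. GGAATG (TEAD factors) was in 22.4% and 15.4%, and in 23.4% and 22.8% of the distal regions. The E-box CAGCTG was in 23.8% and 19.5%, and in 25.7% and 23.6% of the distal regions. GGTGTGA (T-box factors) was in 4.43% and 3.23%, and in 5.26% and 4.09% of the distal regions. TAAAAATA (MEF2 factors) was in 2.22% and 0.996%, and in 1.97% and 1.66% of the distal regions. The homeodomain letters TAATTG were in 8.31% of members and 6.78% of all regions, and in 9.21% (6.45 to 13%) of distal members and 11.8% (11.1 to 12.5%) of distal regions of other genes. For TAATGG, letters of LIM-homeodomain sites such as those of Isl1, the shares were 6.65% and 6.09%, and 7.57% (5.09 to 11.1%) and 9.94% (9.28 to 10.6%) among distal regions. GGGCGG (the GC box of promoters) was in 25.8% of members and 45.7% of all regions, and in 19.1% and 17.3% of the distal regions. AGGGGGCG (part of the CTCF site) was in 5.26% and 7.2%, and in 4.61% and 3.2% of the distal regions, so that for both the direction turned. Within the distal regions, the intervals of members and others overlapped for each of these motifs.

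Lists of miRNA families were compared by how many genes had an assigned region, beside 18.6% over all miRNA genes, and by how many hairpins had a region of any gene within 10 kb, beside 26.4% of 1081 placed hairpins. In all, 23 of 135 listed genes had an assigned region. The intervals of the small lists were wide. The plot of shares by list shows both measures.

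**Figure D3:**
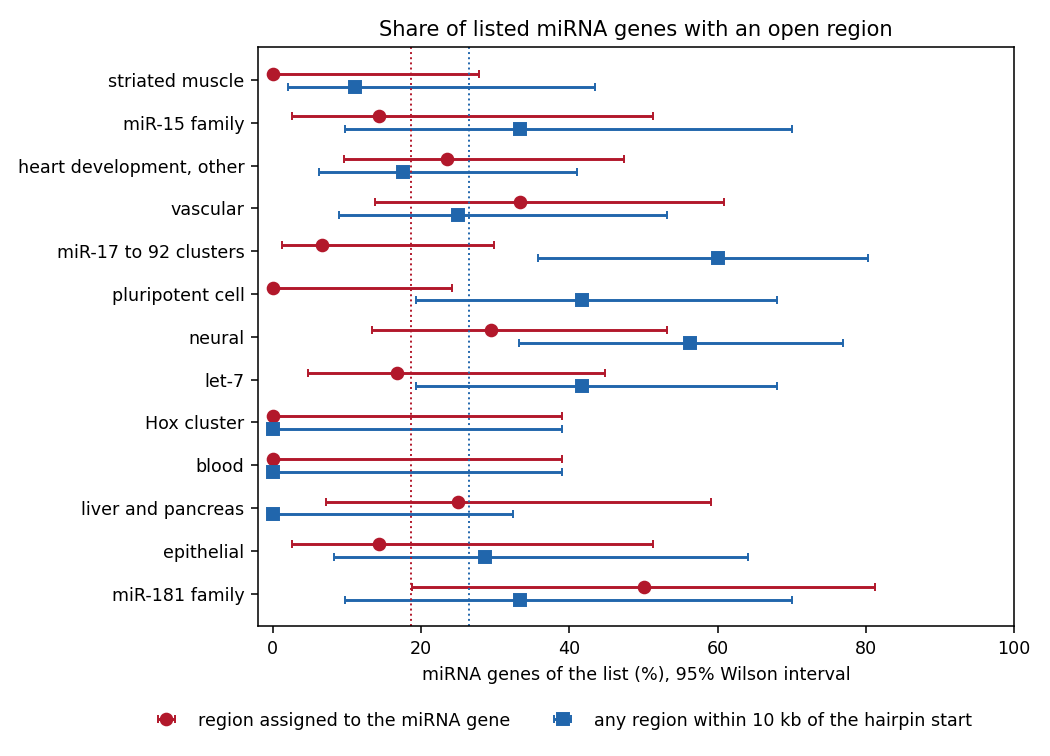
Share of the miRNA genes of each list (%, horizontal axis) with a region assigned to the gene (red circles) and with a region of any gene within 10 kb of the hairpin start (blue squares). Bars are 95% Wilson intervals and the dotted lines are the shares over all miRNA genes, 18.6% and 26.4%. Striated muscle miRNAs stood at 0.0% and 11.1%, and the miR-17 to 92 clusters at 6.67% and at 9 of 15 hairpins. Hairpins of a cluster can share a region but were counted singly.

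Striated muscle miRNAs had no assigned region in 10 genes (interval up to 27.8%). These were Mir1a-1, Mir1a-2, Mir133a-1, Mir133a-2, Mir133b, Mir206, Mir208a, Mir208b, Mir499 and Mir486. For 8 of the 9 that could be placed, the nearest region of any gene was over 10 kb away. It was 54569 bp from Mir1a-1, 57764 bp from Mir133a-2 and 57310 bp from Mir133a-1. Mir208a, Mir208b and Mir499, which lie in the myosin heavy chain genes Myh6, Myh7 and Myh7b, were 22524, 39478 and 30186 bp from a region, and no region was assigned within 1 kb of the start of these hosts. The exception was Mir486, 7292 bp from a region of Gm15816.

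Other miRNAs of the developing heart had an assigned region in 4 of 17 genes (23.5%, 9.56 to 47.3%). Mir130a, whose miRNA is known from endothelial cells, had a pair of adjoining regions 1428 and 2996 bp upstream (1395 and 1522 bp wide), 8379 bp or more from the start of any longer gene. Mir218-1 and Mir218-2 are carried by Slit2 and Slit3, ligands of Robo receptors. Mir218-1 had 1 intronic region 17017 bp downstream, and Mir218-2 had 2 at 92705 and 110903 bp upstream. Both hosts also had an open region at their start. Mir214 had regions 20263 and 90249 bp downstream, the second at a start of Dnm3 (66 bp). Its neighbor Mir199a-2 had none of its own but lay 900 bp from the region at the start of Dnm3os, the host of both. Most of the rest (Mir23b, Mir27b, Mir24-1, Mir26a-2, Mir29b-2, Mir29c and Mir21a) lay in a host open at its start. Over this list, 11 of 12 hairpins in a host were in one with an open start, beside 362 of all 678 hosted hairpins (53.4%). The 11 hairpins shared 7 hosts. The same count was 3 of 3 for the miR-15 family, 3 of 4 for let-7 and 4 of 10 for neural miRNAs. For the miR-17 to 92 clusters it was 3 of 9. It was 0 for the striated muscle, vascular, Hox cluster, blood, liver and pancreas, and epithelial lists, with 2 to 6 hosted hairpins each.

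**Figure D4:**
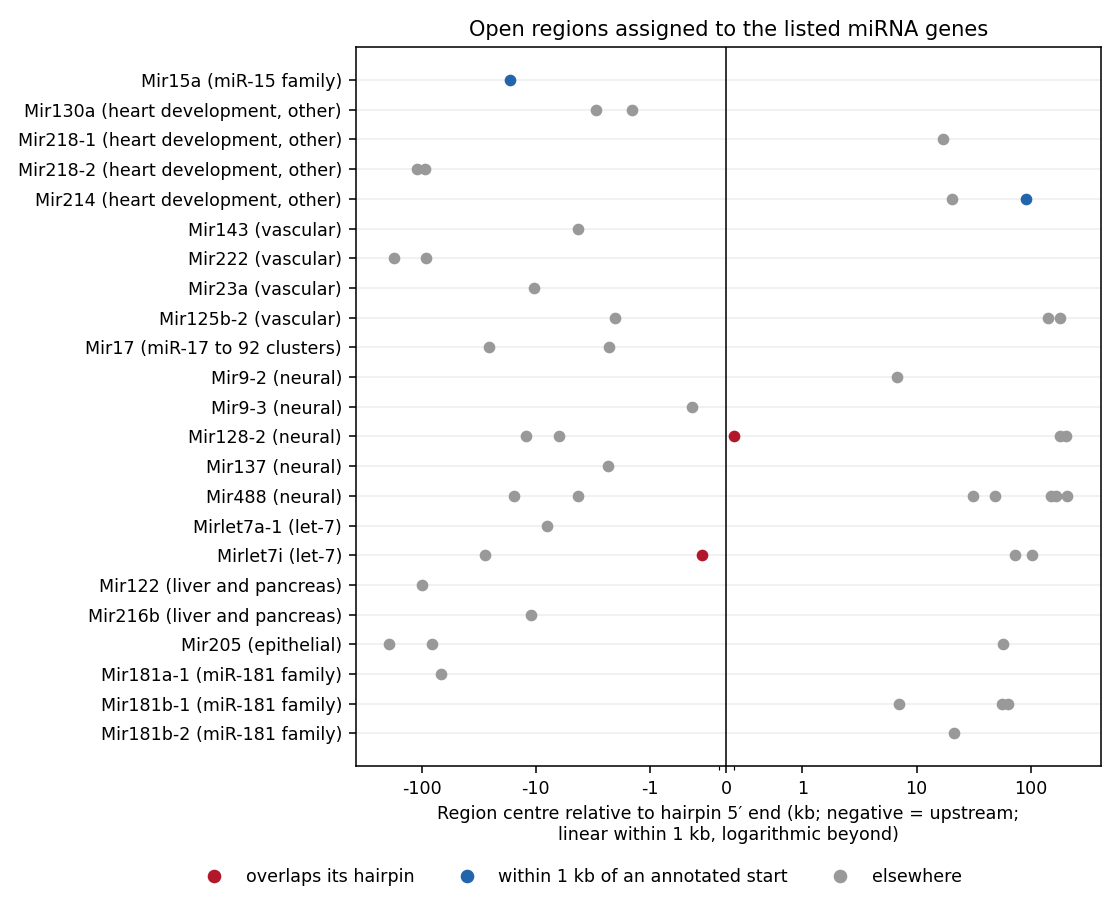
Position of every region assigned to the 23 listed miRNA genes that had one, as the distance of its center from the 5′ end of the hairpin (kb, linear within 1 kb and logarithmic beyond, negative upstream). Each point is 1 region, red where it overlaps the hairpin, blue within 1 kb of an annotated start of a longer gene and gray elsewhere. Red points are seen for Mir128-2 and Mirlet7i.

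Vascular miRNAs had a region in 4 of 12 genes (33.3%, 13.8 to 60.9%). For Mir143, a smooth muscle miRNA, it was 1149 bp wide and 4249 bp upstream, and the hairpin of its partner Mir145a was 5604 bp away. Mir23a, the first hairpin of the miR-23a, miR-27a and miR-24-2 cluster, had a 1946 bp region 10437 bp upstream. Mir222 had 2 regions, 91016 and 173465 bp upstream. Mir125b-2 had one 2046 bp upstream (1126 bp wide) and 2 others 141948 and 181259 bp downstream. Mir126a, the miRNA of endothelial Egfl7, had none, and the nearest region was 55730 bp away.

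The growth-related miR-17 to 92 clusters had few assigned regions, while more of their hairpins lay near a region. In the miR-17 to 92 cluster, only the first hairpin Mir17 was assigned regions, 2 of them. The nearer was 3241 bp wide (chr14:115438971-115442211, GC 65.4%, 10.5 CpG per 100 bp), the second widest of the members, and reached over the annotated start of the host Mir17hg, 1510 bp from the region's center. The other 5 hairpins of the cluster, Mir18, Mir19a, Mir20a, Mir19b-1 and Mir92-1, lay 2482 to 3058 bp from its center. Mir106b, Mir93 and Mir25 lay 5925 to 6339 bp from the 2364 bp region of their host Mcm7, a replication helicase subunit. The X-linked paralogs, Mir106a to Mir363, were 127750 to 128550 bp from the nearest region. In all, 1 of 15 genes of these clusters had an assigned region and 9 of 15 a region within 10 kb. These 9 hairpins shared the Mir17 region and the Mcm7 region, so they are not independent counts.

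The miR-15 family had a region in 1 of 7 genes, the Mir15a region at the start of Dleu2. Mir15b and Mir16-2, in Smc4, lay 5059 and 5189 bp from a region of Ift80, and their host counted as open at its start. Mir322, Mir195a and Mir497 were 66203, 14156 and 13831 bp from the nearest region.

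The let-7 family, which opposes the stem cell factor Lin28, had a region in 2 of 12 genes. Mirlet7i had 4: the one over the hairpin, one 27899 bp upstream in Mon2, and 2 in introns of Ppm1h 72717 and 101417 bp downstream. Mirlet7a-1 had a 1655 bp region 7957 bp upstream (GC 67.3%, 9.31 CpG per 100 bp), away from any annotated start of a longer gene (32659 bp). Mirlet7f-1 and Mirlet7d of the same cluster lay 8312 and 10115 bp from it. Mirlet7e lay 2784 bp from the widest of all members, a 3394 bp region 2620 bp upstream of Mir99b at the head of their cluster with Mir125a. Mirlet7g was 7897 bp from a region of its host Wdr82. Mirlet7a-2 and Mirlet7c-1 were 307709 and 44570 bp from a region.

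Neural miRNAs had a region in 5 of 17 genes (29.4%, 13.3 to 53.1%). A region of any gene lay within 10 kb of 9 of 16 placed hairpins (interval 33.2 to 76.9%). Among these 9, Mir7-1 and Mir7-2 lay near regions of Hnrnpk and Aen. Mir132 and Mir212 shared a region of Ovca2, so they are not independent counts. Mir128-2 had 5, with 1 over the hairpin and others 6237 and 12177 bp upstream and 178969 and 201366 bp downstream. Mir488 had 7, of which 6 were centered in its host Astn1, a neuronal adhesion gene, from 15535 bp upstream to 164794 bp downstream, and the last was 207967 bp downstream in Pappa2. Mir9-3 had an 828 bp region 456 bp upstream that ended before the hairpin (GC 62.9%), and its host transcript Mir9-3hg another 3794 bp upstream of its own start. Mir9-2 had a 1704 bp region 6718 bp downstream. Mir137 had a 603 bp region 2340 bp upstream. No region was assigned to Mir124a-1, Mir124a-2 or Mir124a-3, but the host transcript Mir124-2hg had 4, all upstream of its start. The nearest, at 3449 bp, was the fifth widest member (3116 bp) and reached over a start of Gm10742, 426 bp from its center. The others were 300113 to 683557 bp upstream.

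The miR-181 family had a region in 3 of 6 genes (50.0%, 18.8 to 81.2%). Mir181b-1 had 3 regions downstream at 7019, 56270 and 63264 bp, and Mir181a-1 of the same cluster 1 at 67679 bp upstream. Mir181b-2 had 1 at 21024 bp downstream, in an intron of Nr6a1. The smallest distance in the family was thus 7019 bp. Epithelial miRNAs had a region in 1 of 7 genes, Mir205, with 3 at 57549 bp downstream and at 81703 and 191394 bp upstream. Liver and pancreas miRNAs had one in 2 of 8 genes, the 919 bp region 98811 bp upstream of Mir122 in an intron of Nedd4l and the 1034 bp region 11061 bp upstream of Mir216b. No hairpin of this list had a region within 10 kb.

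Pluripotent cell, Hox cluster and blood miRNAs had no assigned region, in 12, 6 and 6 genes (intervals up to 24.2, 39.0 and 39.0%). The 5 hairpins of the miR-302 and miR-367 cluster lay 7453 to 7958 bp from a 1435 bp region of Larp7, whereas the miR-290 cluster was 69656 to 71803 bp from any region. Mir10a, Mir10b, Mir196a-1, Mir196a-2, Mir196b and Mir615, in the Hox clusters, were 52544 to 241291 bp away. Mir144 and Mir451a, red cell miRNAs, were 40830 and 40995 bp away and Mir223, of myeloid cells, 146466 bp. Mir155 lay 11024 bp from the 1655 bp region of its host transcript Mir155hg, which was itself centered 9907 bp upstream of the start of that transcript.

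Most miRNA genes had a single region. Of the 225 genes, 155 had 1 region (68.9%, beside 73.2% over all genes of the list), 70 had 2 or more and 17 had 4 or more. Mir1904 had 8 and Mir582 had 7, and all 15 of these were in Pde4d or had one of its starts as the nearest, with 3 and 2 of them within 1 kb of a Pde4d start. The regions of Mir1904 reached from 271086 bp upstream to 159383 bp downstream. Mir488, with 7, was described above. Mir7021 had 6, of which 5 were 61854 to 386044 bp downstream and 1 was 25893 bp upstream in an intron of Prdm2. Mir128-2, Mir3963, Mir6344 and Mir99ahg had 5 each. Those of Mir3963 were all downstream, from 23369 to 814893 bp, and those of Mir6344 all upstream, from 19326 to 522816 bp, without an annotated start within 1 kb. The farthest member regions were 1536448 bp from Mir6336, in an intron of Lrp1b, 987366 bp from Mir592 and 889295 bp from Mir7232. For 28 of the 220 hairpin genes (12.7%) every region was over 100 kb away, a share not counted for other genes. By region, 29.2% for hairpin genes and 29.3% for other noncoding genes were over 100 kb away.

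Host transcripts differed among themselves. Mir22hg had a single 2097 bp region 388 bp upstream of its start. Mir99ahg, the long host of miR-99a, let-7c and miR-125b-2, had 5 regions, with a 1490 bp region 286 bp from its start and 3 more 71155 to 114906 bp downstream. The Mir155hg and Mir9-3hg regions were 9907 and 3794 bp upstream. A hairpin inside a longer gene on the same strand is hosted by it. In these counts hosts are GENCODE genes, and Mir125b-2 was not counted as hosted. An open start has a region centered within 1 kb, so Mir17hg was not counted as open, although the Mir17 region reached over its start. The host had an open start for 71 of 100 hosted hairpins with a region of their own (71.0%, 61.5 to 79.0%) and for 291 of 578 without one (50.3%, 46.3 to 54.4%). Of 198 placed hairpins with a region, 100 were inside a host (50.5%, 43.6 to 57.4%), and of 883 without one, 578 were (65.5%, 62.3 to 68.5%). The median distance to the nearest start of a longer gene was 16108.5 bp with a region and 7615 bp without. Each region was assigned to a single gene, so that chromatin and assignment cannot be told apart in these values.

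By seed, 15 families had more than 1 member gene, among 275 seeds of 194 members with a mature sequence. Both mature strands of a hairpin were counted, so the same genes can make up more than 1 family, as Mir9-2 and Mir9-3 did. Such families were not counted over all reference miRNAs. The miR-181 seed was carried by 3 of 6 reference genes, with 5 regions in all, and the miR-130 seed by 3 of 7 genes (Mir130a, Mir130b and Mir6341), with 4 regions. These differed widely in position. The Mir130b region held its hairpin, that of Mir130a lay 1428 bp off and that of Mir6341 was 399919 bp upstream. The let-7 seed was carried by 2 of 13 genes and the miR-15 seed by 2 of 11, the second being Mir195b with regions 101861 and 330974 bp upstream. Both Mir193a and Mir193b had regions upstream, at 7671 and 11876 bp (1998 and 1750 bp wide), and both Mir7239 and Mir760 had a region over the hairpin. Both Mir762 and Mir7648 also had one over the hairpin, each within 1 kb of a coding start (Bcl7c and Alg10b). Mir148a had 2 regions 91439 and 192773 bp downstream, and Mir152 of the same seed 1 at 11633 bp downstream, 7895 bp from Copz2. Mir6346, with a region 649 bp from a start of Gli2, shared its seed with Mir6350, whose regions were 21729 and 78738 bp upstream.

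Genes of the miRNA pathway were mostly open at their own start. Of 24 genes, 17 had an assigned region and 15 one within 1 kb of the start, beside 49.3% of protein-coding genes with any region and 40.6% with one within 1 kb. Drosha and Dgcr8, which cut the primary transcript, had 1 region each, 6 and 116 bp from the start. Dicer1 had 3, the nearest at 104 bp. Ago1, Ago2 and Ago3 had 1 each at 274, 205 and 61 bp, and the silencing partners Tnrc6a, Tnrc6b and Tnrc6c had 2, 2 and 1. Lin28a and Lin28b, which block let-7 processing, had regions at 6838 bp and from 16105 bp on, and none within 1 kb. No region was assigned to Xpo5, Tarbp2, Ago4, Ddx5, Ddx17, Adar or Adarb1.

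Members were spread over 20 chromosomes. Their share of a chromosome's regions was highest on chromosome 16 (27 of 623, 4.33%) and 13 (31 of 783, 3.96%). It was lowest on chromosome 17 (3 of 660, 0.455%) and the X chromosome (4 of 542, 0.738%). The reference places 31, 34, 36 and 87 hairpins on these chromosomes, in this order. Of the 31 member regions on chromosome 13, 15 were those of Mir1904 and Mir582, in Pde4d or nearest to its starts. In the largest miRNA cluster, 67 hairpins of the miR-466, miR-467 and miR-669 families on chromosome 2, Mir669h alone was assigned regions (2, at 218717 and 307640 bp). In the 39-hairpin cluster of chromosome 12 that begins with Mir379, Mir3072 alone was (1 region, 2257 bp downstream).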

How the data were processed

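Each of the 9 libraries was grouped by the genotype in its label. According to the study's methods and the submitters' processing notes, the authors mapped reads to mm9 with Bowtie2, kept alignments with SAMtools, removed duplicates with Picard 1.136, called peaks per library with MACS, removed blacklisted peaks and intersected replicates with bedtools 2.15 at a minimum overlap of 1 bp. The deposited columns give region start and end, a signed distance in bp, a RefSeq transcript and a symbol. The tool that assigned genes is not given in the sources used here.

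Regions of the same position were counted once. Hairpins of RefSeq (GRCm38.p6) were matched by sequence to NCBIM37 on their own chromosome (1004 of 1005 matched, 15 more than once and then taken from GENCODE vM1 names where these gave 1 position). A member was kept as placed only where the position gave the deposited distance within 5 bp, which left out 2 genes. By sequence 184 and by GENCODE name 14 of the 220 member hairpins were placed. Mature sequences were found for 194 members. Distances run from region center to start, and a region counts as near a start within 1 kb. A host is a longer gene around the hairpin on the same strand. Genes were matched to the reference by accession, then by symbol. Scripts used Python 3.11.15, pandas 2.3.3 and scipy 1.17.1, and were tested on simulated data. The alternatives were all rows as deposited, wider regions, early-named genes, and other limits, hosts, seeds and windows.

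The members, lists and alternatives were chosen with earlier results of these data known. Named genes were list members with a region, the 5 genes with most regions, the 5 widest regions, the 10 widest regions over their assigned hairpin, the 3 farthest regions, 10 seed families (those with 3 member genes, then those with 2 in alphabetical order of seed), and their hosts. Other names (among them Mir210, Mir320, Mir1903, Igf2bp1, Strbp, Rai1, Mir669h and Mir3072) were chosen after their values were seen.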

Additional observations from a re-analysis of the deposited data

How the results depend on the processing

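No library had a value of its own, so nothing could be left out and no spread between embryos could be given. No paired analysis was possible because the values come from no test and from 1 list. Of 107 alternative values, 61 stayed within their interval, among them all 24 with every row as deposited. With regions of at least the median width of the list (1123 bp), 124 regions and 103 genes remained in number, 8.39% of miRNA genes had a region, 14.6% of those had more than 1 (31.1% otherwise), 21.8% of regions were within 1 kb of the hairpin start, 22.7% overlapped the hairpin, 34.7% were within 1 kb of any start, 51.6% were inside a gene and 43.7% were downstream. Their medians were 1477 bp in width, 15760 bp in distance, 52.9% GC and 2.94 CpG per 100 bp, and 3 seed families had more than 1 gene. With early-named genes, 140 regions and 83 genes were counted, 14.8% of genes had a region, 8.59% of regions were near the hairpin start, 8.13% overlapped the hairpin and the median GC was 47.4%. A 5 kb limit gave 19.2% near the hairpin start, the region's center inside the hairpin 1.58%, protein-coding starts alone 12.7%, hosts on either strand 59.1% and seeds of bases 2 to 7 gave 24 families. Leaving out the starts of small RNAs, an alternative chosen after seeing the data, gave 15.8%. In wide regions GATA letters were in 6.45% of members, the E-box in 17.7%, TEAD letters in 16.1% and the GC box in 41.1%. With early-named genes the E-box was in 28.6%, TEAD letters in 17.1%, the GC box in 21.4% and CTCF letters in 2.86%. Over whole regions instead of the central 300 bases all 9 motif shares were higher, from 10.2% (MEF2) to 56.5% (E-box), with 44.0% for GATA and 32.4% for LIM-homeodomain letters. The cause of the shifts was not tested. Depth is unknown, so a gene without a region may have been below the peak threshold in 1 library.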

Other observations

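Among all 361 members, 40 regions had a GC content over 60% (11.1%), and 18 of these were centered over 1 kb from the start of any longer gene. The same share was not counted over all regions, whose upper quartile of GC content was 59.3%, beside 53.7% for the members. These 18 included the regions of Mirlet7i, Mirlet7a-1 and Mir17, the last of which reached over the start of Mir17hg. They also included a 2451 bp region 21671 bp upstream of Mir30d (GC 60.3%, 8.49 CpG per 100 bp). Mir5133 had a 1155 bp region over its hairpin (8.05 CpG per 100 bp), 52209 bp from the nearest start, Glce. Mir26b, in the intron of a phosphatase gene, had a 2395 bp region 3074 bp downstream. Mir7224 had the fourth widest region of the members, 3139 bp at 109268 bp upstream, 49226 bp from Xirp2, a gene of striated muscle. These genes were picked after their values were seen.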
